A study of Mus musculus with 12 samples.

Results

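The matrix metalloproteinases Mmp3, Mmp7, Mmp8, Mmp10, Mmp12, Mmp13, Mmp20 and Mmp27 lie side by side on mouse chromosome 9 and were examined as a group in ankle joints of mice with and without serum-transfer arthritis. A gene was taken as the array row that the platform annotation assigns to its symbol alone, and all 8 genes had exactly 1 such row among the 21789 rows with 1 symbol and the 28853 rows of the table. All 8 passed the filter on low signal, with Mmp27 at a mean of 4.95 and the lowest row tested at 4.93. Their order along the chromosome was Mmp13, Mmp12, Mmp3, Mmp10, Mmp8, Mmp27, Mmp20 and Mmp7, with Mmp1b between Mmp12 and Mmp3 and Mmp1a between Mmp3 and Mmp10.

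Total RNA of whole ankle joints was hybridized to Affymetrix Mouse Gene 1.0 ST arrays, 1 mouse per array, with 3 mice in each group. The labels give genotype and arthritis, and the methods of the study describe male mice on a C57BL/6 background. Serum was transferred to mice aged 6 to 8 weeks, and the age of control mice is not given. The groups were arthritic Mmp8-/- mice, control Mmp8-/- mice, arthritic Mmp8+/+ mice and control Mmp8+/+ mice. Arthritic mice had received 150 µl of serum from arthritic K/BxN mice, which carries joint-directed autoantibodies, into the peritoneum on day 0 and day 2 and were killed on day 7, whereas control mice had no arthritis, and what controls were injected with is not given in the sources used here. The Mmp8 null allele was made on a mixed background that included C57BL/6 and was carried into C57BL/6 by repeated backcrossing. Mmp8-/- mice carry it in every cell, so functional Mmp8 is absent from the whole mouse rather than from 1 cell type. Because Mmp8 lies inside the cluster, its 7 relatives are also the genes closest to the targeted locus, and an effect of lacking Mmp8 cannot be told apart from any difference in the chromosome segment around it.

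Matrix metalloproteinases are zinc-dependent enzymes that are mostly secreted as inactive precursors and cleave collagens, proteoglycans and elastin once their pro-domain has been removed by plasmin or by another metalloproteinase. In inflamed joints, interleukin 1, tumor necrosis factor and related cytokines act on synovial fibroblasts and chondrocytes through AP-1, NF-kB, Ets and C/EBP transcription factors and so raise several genes of this cluster, and tissue inhibitors of metalloproteinases (TIMPs) bind the active enzymes. Within the cluster, Mmp8 and Mmp13 encode the neutrophil collagenase and collagenase 3, Mmp3 and Mmp10 encode stromelysins, Mmp12 encodes macrophage elastase, Mmp7 encodes the epithelial protease matrilysin and Mmp20 encodes the tooth enamel protease enamelysin, while the substrates of Mmp27 are little known.

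3 arrays stood apart from their labels or from the description of the mice as male. The array labelled Mmp8-/- control replicate 2 had an Mmp8 signal in the range of Mmp8+/+ mice. Xist, the RNA of the inactive X chromosome, read 10.92 on Mmp8-/- control replicate 1 and 10.42 on Mmp8+/+ control replicate 1, whereas the other 10 arrays read 4.66 to 5.41, and the Y-linked gene Eif2s3y read 4.16 and 4.02 on those arrays against 7.94 to 9.27 on the others. All arrays were centred alike, with median signals of 6.74 to 6.82. For the main results, values without these arrays stand beside those with all 12.

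Upstream sequences of the cluster genes are shown here because they are the stretches on which the inducing transcription factors act, and Mmp3, Mmp13, Mmp12 and Mmp8 were chosen because the results turn on these genes. All 8 genes matched the RefSeq promoter table of GRCm38.p6, with 1 window each except for Mmp7 and Mmp12, which have a pair of annotated starts. The 250 bases before each start are printed from 5′ to 3′, with capitals marking the AP-1 motif (TGANTCA, read on both strands) and the TATA box (TATAAA).

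Mmp3, chr9:7445572-7445821, plus strand: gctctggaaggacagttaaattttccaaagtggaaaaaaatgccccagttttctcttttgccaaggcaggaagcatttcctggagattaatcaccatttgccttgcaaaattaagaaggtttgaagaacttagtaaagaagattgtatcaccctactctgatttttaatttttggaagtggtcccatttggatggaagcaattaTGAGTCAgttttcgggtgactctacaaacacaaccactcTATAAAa

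Mmp13, chr9:7272264-7272513, plus strand: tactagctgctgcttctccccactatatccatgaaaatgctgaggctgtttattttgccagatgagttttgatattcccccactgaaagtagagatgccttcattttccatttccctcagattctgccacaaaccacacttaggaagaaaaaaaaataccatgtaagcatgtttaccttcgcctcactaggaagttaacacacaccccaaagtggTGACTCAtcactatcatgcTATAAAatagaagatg

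Mmp12, window nearer the end of chromosome 9, chr9:7347124-7347373, plus strand: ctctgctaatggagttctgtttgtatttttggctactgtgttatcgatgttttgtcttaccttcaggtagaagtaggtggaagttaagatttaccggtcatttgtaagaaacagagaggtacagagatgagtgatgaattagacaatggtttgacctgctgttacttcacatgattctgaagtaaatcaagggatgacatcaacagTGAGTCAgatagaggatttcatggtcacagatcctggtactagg

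Mmp12, other window, chr9:7344147-7344396, plus strand: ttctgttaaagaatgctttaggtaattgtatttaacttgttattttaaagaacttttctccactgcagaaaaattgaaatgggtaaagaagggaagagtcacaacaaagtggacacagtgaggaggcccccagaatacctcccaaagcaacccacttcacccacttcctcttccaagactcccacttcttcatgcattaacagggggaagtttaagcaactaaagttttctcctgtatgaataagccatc

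Mmp8, chr9:7558179-7558428, plus strand: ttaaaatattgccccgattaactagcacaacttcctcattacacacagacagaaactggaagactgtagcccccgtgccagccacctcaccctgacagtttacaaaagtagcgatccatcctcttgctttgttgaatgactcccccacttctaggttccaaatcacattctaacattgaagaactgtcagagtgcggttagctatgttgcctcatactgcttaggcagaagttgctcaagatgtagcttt

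The AP-1 motif was found in 6 of the 10 windows of the cluster genes, compared with 6.75% of the 32851 windows of all genes, and the TATAAA motif in 5 of 10, compared with 12.4%. The genes with an AP-1 match were Mmp3, Mmp7, Mmp10, Mmp12, Mmp13 and Mmp20. Its first base lay 46 bases before the start in Mmp3, 35 bases before it in Mmp13, 63 bases before it in Mmp10 and in Mmp7, 44 bases before the start of 1 of the Mmp12 windows, and 95 bases before the start of Mmp20. No TGANTCA match lay in the windows of Mmp8 and Mmp27 or in the other windows of Mmp7 and Mmp12. The short Ets motif (AGGAAG) was found in 6 of 10 windows against 29.5% of all windows, the Runx motif (ACCACA) in 3 of 10 against 14.0%, and the C/EBP motif (TTNNGNAA) in 6 of 10 against 36.8%. None of these motifs overlapped an AP-1 match in the printed windows, and a match describes letters, not binding.

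Signals are given as log2 values after robust multi-array averaging (RMA), so that a difference of 1 is a doubling. A gene was called changed when its Benjamini-Hochberg adjusted p from limma, taken over all tested rows, was below 0.05, which corresponds to a false discovery rate (FDR) of 5%. Arthritis changed 4 of the 8 genes in Mmp8-/- mice, 3 higher and 1 lower, and 2 of 8 in Mmp8+/+ mice, both higher. The share of all tested rows called was 21.5% in Mmp8-/- mice and 18.8% in Mmp8+/+ mice. The median difference of the 8 genes was 0.47 in Mmp8-/- mice and 0.15 in Mmp8+/+ mice, compared with medians over all rows of 0.0063 and 0.02. Averaged over genotypes, 5 of 8 genes were called, 4 higher and 1 lower, where 41.9% of all rows were called.

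**Figure D1:**
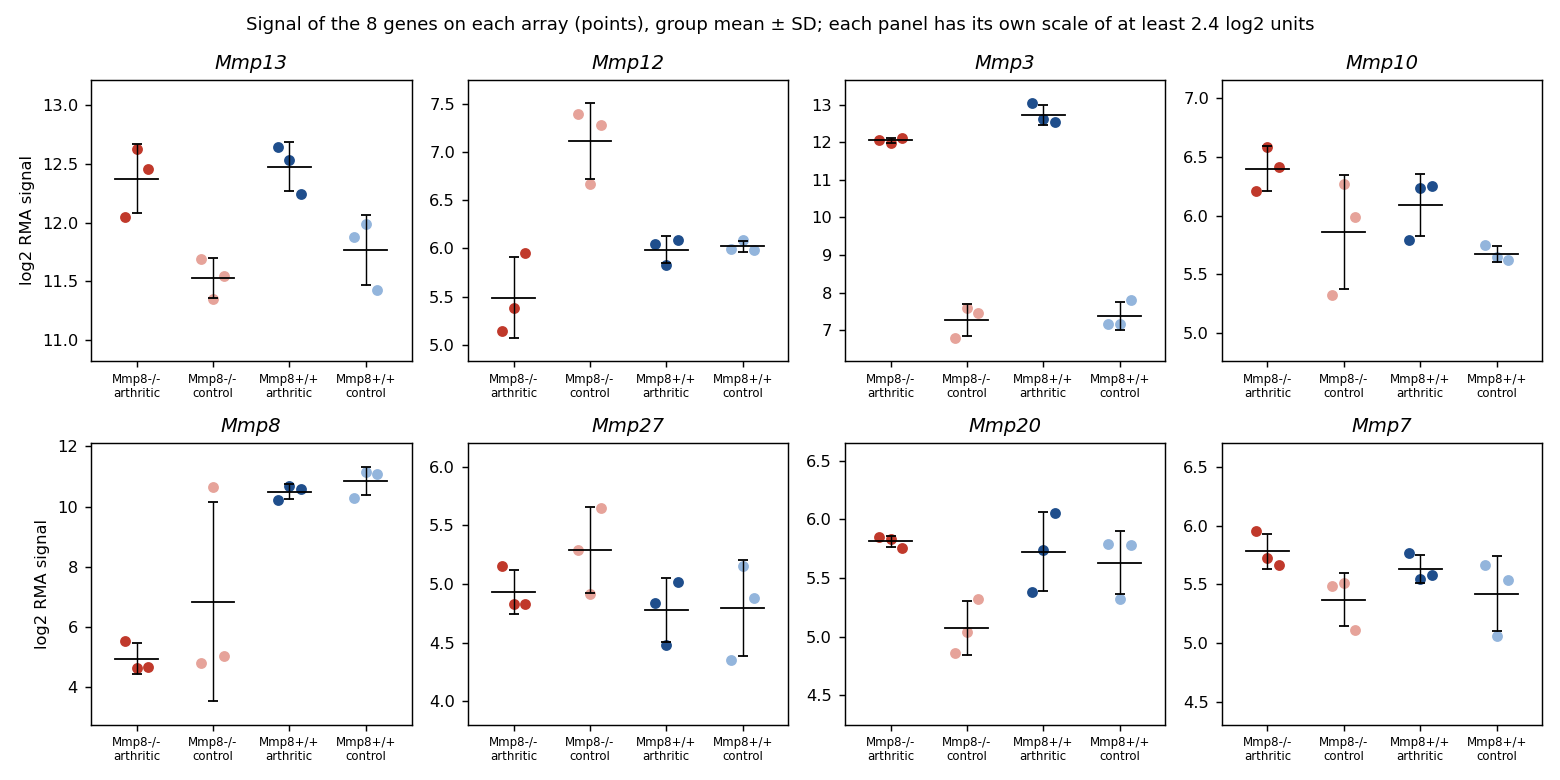
Log2 RMA signal (vertical axis) of the 8 cluster genes, in chromosome order, on each of the 12 arrays (points), by group (horizontal axis). Horizontal bars are group means and whiskers the SD of 3 mice. Mmp3 separates arthritic from control mice by several log2 units, Mmp12 is highest in Mmp8-/- control mice, and 1 point labelled Mmp8-/- control has Mmp8 signal.

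Among the stromelysins, Mmp3 showed the strongest response of the cluster. In arthritic Mmp8-/- mice its signal was 12.06, 11.98 and 12.11, against 6.80, 7.59 and 7.45 in Mmp8-/- control mice. In arthritic Mmp8+/+ mice it was 13.04, 12.62 and 12.54, against 7.17, 7.15 and 7.80 in Mmp8+/+ control mice. No arthritic array overlapped a control array, and the gap between the lowest arthritic and the highest control array was several times the spread within any group.

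Mmp3 rose by 4.77 ± 0.23 (SE) in arthritic Mmp8-/- mice, which is 27.3-fold, with an adjusted p of 3.8e-08, and by 5.36 ± 0.23 in arthritic Mmp8+/+ mice, which is 41.1-fold, with an adjusted p of 8.2e-09 (n = 3 mice per group). It ranked first of all tested rows by the size of its t statistic in both genotypes, and its difference was the largest rise of all rows in Mmp8+/+ mice and the second largest in Mmp8-/- mice. Mmp3 encodes stromelysin 1, which degrades proteoglycans and non-fibrillar collagens and activates other pro-enzymes. Over all alternatives run, including the removal of the 3 arrays above, its rise lay between 4.53 and 4.93 in Mmp8-/- mice and between 5.21 and 5.57 in Mmp8+/+ mice.

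Mmp10, the neighbouring stromelysin, moved by less than a doubling. Its signal was 6.21, 6.59 and 6.41 in arthritic Mmp8-/- mice, against 5.33, 6.27 and 5.99 in Mmp8-/- control mice, and these groups overlapped. It was 5.79, 6.24 and 6.25 in arthritic Mmp8+/+ mice, against 5.75, 5.65 and 5.62 in Mmp8+/+ control mice, with all 3 arthritic arrays above the controls. The difference was 0.54 ± 0.22 in Mmp8-/- mice (adjusted p = 0.0867) and 0.42 ± 0.22 in Mmp8+/+ mice (adjusted p = 0.188), and neither was called. Averaged over genotypes Mmp10 rose by 0.48 ± 0.15, with an adjusted p of 0.0228. Without the array labelled Mmp8-/- control replicate 2, the rise of Mmp10 in Mmp8-/- mice was 0.74 and passed the test (adjusted p = 0.0419), whereas without both arrays with Xist signal the averaged rise was 0.36 and did not pass (adjusted p = 0.0768). The averaged call was also lost without Mmp8-/- control replicate 1 (0.34, adjusted p = 0.0562) and without arthritic Mmp8+/+ replicates 2 or 3 (0.44 in each, adjusted p = 0.0516 and 0.0526). Quantile normalization (0.38, adjusted p = 0.0715) and ordinary regression (0.48, adjusted p = 0.0581) ended this call too. Without all 3 arrays that stood apart, the averaged rise of Mmp10 was 0.43.

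Mmp13, the gene of collagenase 3, which cleaves fibrillar type II collagen of cartilage, had signal above 11 on all arrays. It read 12.05, 12.63 and 12.45 in arthritic Mmp8-/- mice, against 11.69, 11.35 and 11.54 in Mmp8-/- control mice. In arthritic Mmp8+/+ mice it read 12.65, 12.53 and 12.24, against 11.88, 11.99 and 11.43 in Mmp8+/+ control mice. Arthritic and control arrays did not overlap in either genotype.

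Mmp13 rose by 0.85 ± 0.20 in Mmp8-/- mice, which is 1.80-fold (adjusted p = 0.0085), and by 0.71 ± 0.20 in Mmp8+/+ mice, which is 1.63-fold (adjusted p = 0.0213). Its averaged rise was 0.78 ± 0.14, with an adjusted p of 0.00063, and stayed past the test under every alternative run. The call in Mmp8+/+ mice was lost without control replicate 3, with a rise of 0.54 and an adjusted p of 0.0766, and without arthritic replicates 1 or 2, with rises of 0.62 and 0.68 and adjusted p of 0.0906 and 0.0658. Without both arrays with Xist signal it was 0.77 in Mmp8+/+ mice, with an adjusted p of 0.0514. Without all 3 arrays that stood apart, the rise was 0.83 in Mmp8-/- mice (adjusted p = 0.205) and 0.77 in Mmp8+/+ mice (adjusted p = 0.0669).

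Mmp8, the targeted gene and the collagenase that neutrophils store in their granules, read 5.54, 4.64 and 4.67 in arthritic Mmp8-/- mice, against 10.21, 10.69 and 10.58 in arthritic Mmp8+/+ mice. On the arrays labelled Mmp8-/- control it read 4.82, 10.65 and 5.05, against 10.30, 11.16 and 11.09 in Mmp8+/+ control mice. The array labelled Mmp8-/- control replicate 2 was therefore within the range of the 6 Mmp8+/+ arrays, while the other 5 Mmp8-/- arrays lay more than 4 log2 units below them.

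In Mmp8+/+ mice the Mmp8 signal did not pass the test for arthritis, with a difference of -0.36 ± 1.03 (95% confidence interval -2.55 to 1.84, adjusted p = 0.832). This wide interval came from the 1 discordant array, which enters the shared estimate of the spread. Without it the difference in Mmp8+/+ mice was -0.36 ± 0.27 (adjusted p = 0.373). The difference between arthritic and control mice labelled Mmp8-/- was -1.89 ± 1.03 with that array (adjusted p = 0.187) and 0.01 ± 0.30 without it (adjusted p = 0.983).

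Markers of neutrophils and their marrow precursors are given beside Mmp8 because these cells are its known source. Of the 12 markers on the list, none passed the test for arthritis in Mmp8-/- mice, and 6 were lower and none higher in Mmp8+/+ mice, with medians of -0.21 and -0.94. The lower markers in Mmp8+/+ mice were Ltf, Camp, Ngp, Mpo, Ctsg and Cebpe, with differences of -0.91 to -1.47, and without the 3 arrays 4 of 12 were lower. Leaving out any 1 Mmp8+/+ control array, or arthritic Mmp8+/+ replicate 1 or 2, left 1 or 2 lower markers. In Mmp8-/- mice, 2 markers were higher without control replicate 3. The mean signal of the list spanned 9.82 to 10.33 in arthritic Mmp8-/- mice, 9.77 to 10.79 in Mmp8-/- control mice, 9.58 to 10.47 in arthritic Mmp8+/+ mice and 10.72 to 10.89 in Mmp8+/+ control mice. The array labelled Mmp8-/- control replicate 2 had a list mean of 10.42, between the other 2 arrays of its group. Fewer cells of a type and less RNA per cell cannot be told apart in whole joints, and the part of these cells in the Mmp8 values was not tested.

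**Figure D2:**
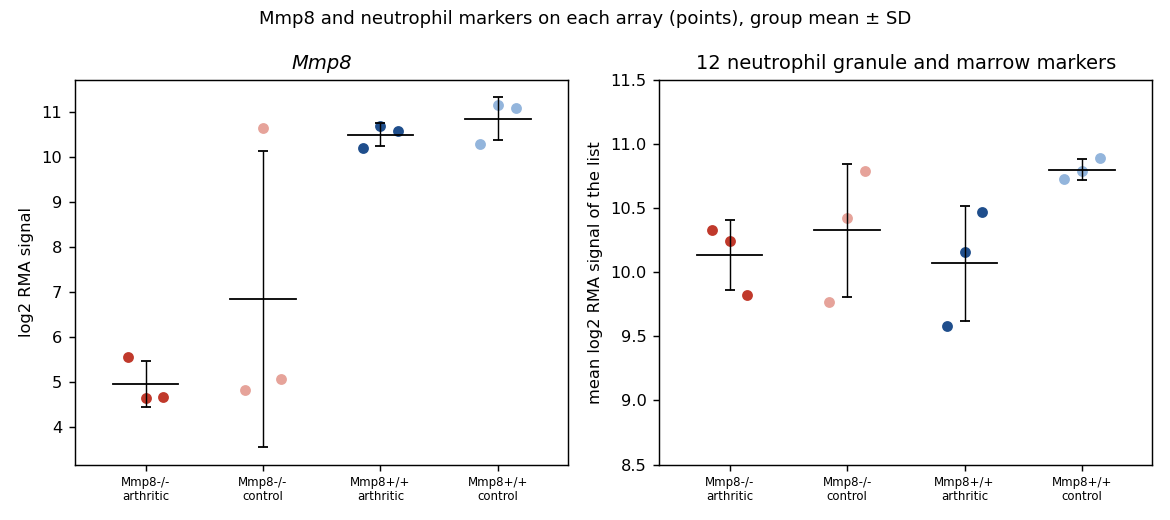
Log2 RMA signal of Mmp8 (left) and mean log2 RMA signal of 12 neutrophil granule and marrow markers (right) on each array (points) by group, with group means (bars) and SD (whiskers, n = 3). Mmp8 lies near 5 on 5 of 6 Mmp8-/- arrays and near 10.65 on the remaining one, while the markers of the same Mmp8-/- arrays lie between 9.77 and 10.79.

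Mmp12, the gene of macrophage elastase, which cleaves elastin, was the only cluster gene called lower with arthritis. Its mean over the 12 arrays was 6.15, below the median of 7.09 over all rows with 1 symbol. Its signal was 5.14, 5.38 and 5.95 in arthritic Mmp8-/- mice, against 7.40, 6.66 and 7.28 in Mmp8-/- control mice, without overlap. In arthritic Mmp8+/+ mice it was 6.05, 5.83 and 6.09, against 5.99, 6.09 and 5.98 in Mmp8+/+ control mice, and these 6 arrays lay between 5.83 and 6.09. Mmp12 signal was thus highest on the 3 arrays labelled Mmp8-/- control and lowest on 2 of the 3 arthritic Mmp8-/- arrays.

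Mmp12 fell by 1.62 ± 0.22 in arthritic Mmp8-/- mice, so that it was 3.08-fold lower than in Mmp8-/- control mice, with an adjusted p of 0.00017. The difference in Mmp8+/+ mice was -0.03 ± 0.22 (95% confidence interval -0.50 to 0.43, adjusted p = 0.933). Under all 23 alternatives the fall in Mmp8-/- mice passed the test, with values of -1.85 to -1.45. Without the array labelled Mmp8-/- control replicate 2 it was -1.85 ± 0.22, without both arrays with Xist signal it was -1.48 ± 0.25, and without all 3 it was -1.79 ± 0.30 (adjusted p = 0.0063).

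The difference of these effects between the genotypes was tested as an interaction, and it was -1.59 ± 0.31 for Mmp12, with an unadjusted p of 0.00013 and an adjusted p of 0.705. It stood at rank 3 of the tested rows by the size of its t statistic. In this comparison 588 rows had an unadjusted p below 0.05. That was fewer than 5% of the tested rows, the average share if no row differed. Limma called 0% of all rows, so the interaction of Mmp12 did not pass the test. Its adjusted p ranged from 0.275 to 0.999965 over the alternatives.

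Macrophage markers are set beside Mmp12. In Mmp8-/- control mice compared with Mmp8+/+ control mice, none of the 7 markers passed the test, and their differences lay between -0.05 for Lyz2 and 0.18 for Csf1r. The difference of Mmp12 was 1.09 and did not pass either (adjusted p = 0.9998). The part of macrophages in the Mmp12 values was not tested. With arthritis, 3 of 7 markers were called in each genotype, where 21.5% of all rows were called in Mmp8-/- mice and 18.8% in Mmp8+/+ mice. Cd14 and Cd68 were higher and Cd163 lower in both genotypes. Cd163, a scavenger receptor of resident macrophages, fell by 1.18 ± 0.23 in Mmp8-/- mice and fell by 1.16 ± 0.23 in Mmp8+/+ mice. Without all 3 arrays that stood apart, 1 marker was higher and none lower in Mmp8-/- mice, and 1 was higher and 1 lower in Mmp8+/+ mice. The mean signal of the list spanned 10.06 to 10.42 in arthritic Mmp8-/- mice, 10.09 to 10.16 in Mmp8-/- control mice, 10.18 to 10.33 in arthritic Mmp8+/+ mice and 9.94 to 10.13 in Mmp8+/+ control mice.

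Mmp20, known as an enzyme of developing enamel, had low signal on all arrays. It read 5.85, 5.83 and 5.76 in arthritic Mmp8-/- mice, against 4.86, 5.04 and 5.32 in Mmp8-/- control mice, without overlap. In arthritic Mmp8+/+ mice it read 5.38, 5.74 and 6.05, against 5.79, 5.32 and 5.78 in Mmp8+/+ control mice, with overlap. It rose by 0.74 ± 0.19 in Mmp8-/- mice (adjusted p = 0.0164), and its difference in Mmp8+/+ mice was 0.09 ± 0.19 (adjusted p = 0.760). The call in Mmp8-/- mice was lost without control replicate 1 (0.63, adjusted p = 0.0809), without the array labelled Mmp8-/- control replicate 2 (0.72, adjusted p = 0.0507), without both arrays with Xist signal (0.63, adjusted p = 0.0927) and without all 3 arrays (0.49, adjusted p = 0.456). The interaction of 0.65 ± 0.27 had an adjusted p of 0.9998. Mmp20 was also called in the averaged comparison, at 0.42 ± 0.14 with an adjusted p of 0.0254. This call was lost without Mmp8-/- control replicate 1, Mmp8+/+ control replicate 2 or arthritic Mmp8+/+ replicate 3, with rises of 0.36, 0.34 and 0.34. It was also lost without both arrays with Xist signal (0.40, adjusted p = 0.0724), with quantile normalization (0.28, adjusted p = 0.112) and by ordinary regression (0.42, adjusted p = 0.0510). Without all 3 arrays the averaged rise was 0.33.

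Mmp7 and Mmp27 were not called in any comparison. Mmp7, a protease of glandular epithelium, read 5.95, 5.72 and 5.66 in arthritic Mmp8-/- mice, against 5.48, 5.51 and 5.11 in Mmp8-/- control mice. Its difference was 0.41 ± 0.18 in Mmp8-/- mice (adjusted p = 0.115), with no overlap of the arrays, and 0.21 ± 0.18 in Mmp8+/+ mice (adjusted p = 0.431), where values of 5.77, 5.54 and 5.58 in arthritic mice stood against 5.67, 5.06 and 5.54 in control mice. Averaged over genotypes it was 0.31 ± 0.13 (adjusted p = 0.0648), and the test was passed at 0.37 without Mmp8+/+ control replicate 1 (adjusted p = 0.0443) and at 0.36 with each array's mean subtracted (adjusted p = 0.0371). Mmp27 read 5.15, 4.83 and 4.83 in arthritic Mmp8-/- mice, against 5.29, 4.91 and 5.65 in Mmp8-/- control mice, and 4.84, 4.48 and 5.02 in arthritic Mmp8+/+ mice, against 4.35, 5.15 and 4.88 in Mmp8+/+ control mice. Its difference was -0.35 ± 0.23 in Mmp8-/- mice (adjusted p = 0.275) and -0.02 ± 0.23 in Mmp8+/+ mice (adjusted p = 0.967), with overlap in both.

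The cluster genes Mmp1a and Mmp1b, the rodent counterparts of interstitial collagenase, fell below the lowest mean and were not tested. Mmp1a read 3.93 to 4.25 in arthritic Mmp8-/- mice, 3.73 to 3.87 in Mmp8-/- control mice, 3.91 to 4.06 in arthritic Mmp8+/+ mice and 3.92 to 4.53 in Mmp8+/+ control mice. Mmp1b read 3.36 to 3.74 over all 12 arrays.

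**Figure D3:**
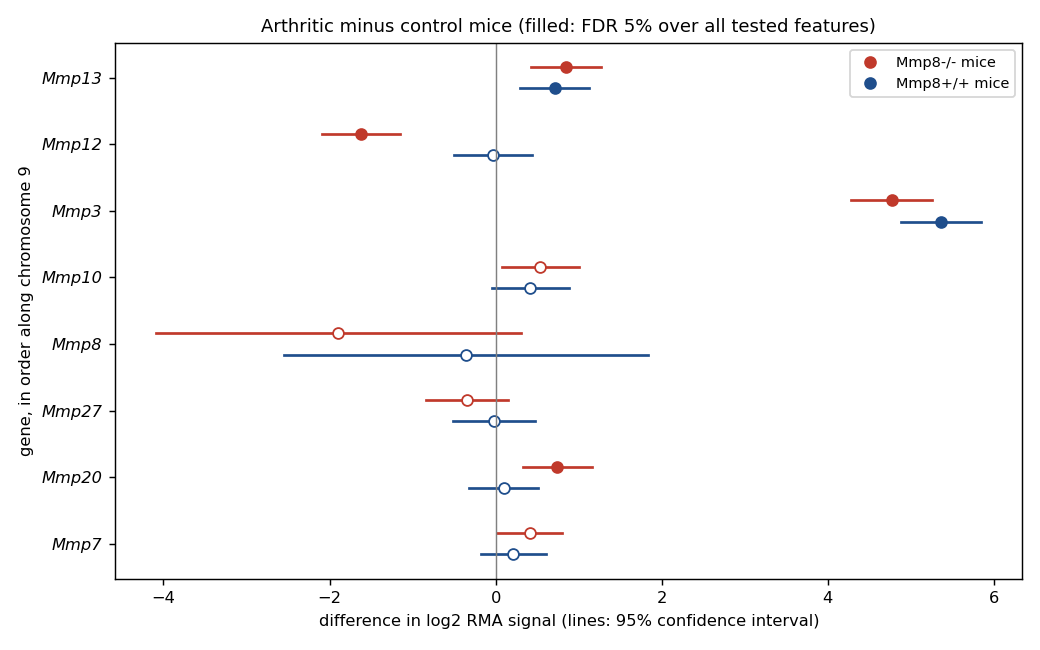
Difference in log2 RMA signal between arthritic and control mice (horizontal axis) for the 8 genes in chromosome order (vertical axis), in Mmp8-/- mice (red) and Mmp8+/+ mice (blue). Points are limma estimates, filled where the adjusted p was below 0.05, and lines are 95% confidence intervals. Mmp3 and Mmp13 are filled in both genotypes, and Mmp12 and Mmp20 in Mmp8-/- mice only, a difference between genotypes that did not pass the interaction test.

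Along the chromosome, the genes called in Mmp8-/- mice with all arrays did not form 1 block. Mmp12, which fell, lies between Mmp13 and Mmp3, which rose, and Mmp20 lies beyond Mmp27, which was not called. Mmp8 also lies between Mmp3 and Mmp20, but it is the deleted gene, so its lack of a call cannot mark a gap. Without all 3 arrays that stood apart, Mmp13 and Mmp20 were not called (adjusted p = 0.205 and 0.456).

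Between genotypes, the question was whether joints that lack Mmp8 carry different levels of its neighbours. In arthritic mice, none of the 8 genes was called at an FDR of 5%, where 1 row (0.00541% of those tested) was called, Krtdap, a keratinocyte gene named here after its value was seen, with a difference of -1.83 ± 0.23. This call was lost with array weights, by ordinary regression, with every row tested and without both arrays with Xist signal. It was also lost without arthritic Mmp8+/+ replicates 2 or 3, or without arthritic Mmp8-/- replicates 1 or 2. At an unadjusted p below 0.05 there were 537 rows, among them Mmp3, Mmp8 and Mmp12. These were fewer than 5% of the tested rows, the average share below 0.05 if no row differed. In control mice none of the 8 genes and 0% of all rows were called by limma. There, 600 rows had an unadjusted p below 0.05, among them Mmp8, Mmp12 and Mmp20. These too were fewer than 5% of the tested rows, so the row counts alone give no sign of a difference between genotypes.

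Mmp3 in arthritic Mmp8-/- mice was lower than in arthritic Mmp8+/+ mice on every array, with a highest value of 12.11 against a lowest value of 12.54. The difference was -0.68 ± 0.23 (95% confidence interval -1.17 to -0.20), with an unadjusted p of 0.0091 and an adjusted p of 0.9998, and so did not pass the test. In control mice the difference of Mmp3 was -0.09 ± 0.23, and the interaction was -0.59 ± 0.32 with an unadjusted p of 0.0858.

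Mmp12 in Mmp8-/- control mice, with 7.40, 6.66 and 7.28, lay above the 5.99, 6.09 and 5.98 of Mmp8+/+ control mice without overlap. The difference was 1.09 ± 0.22 (95% confidence interval 0.63 to 1.56), 2.13-fold, with an unadjusted p of 0.00017, the first of all tested rows by the size of its t statistic, and an adjusted p of 0.9998. Without the array labelled Mmp8-/- control replicate 2, whose value of 6.66 was the lowest of its group, the difference was 1.32 ± 0.22 with an adjusted p of 0.132. Without both arrays with Xist signal it was 0.94 ± 0.27, and without all 3 arrays it was 1.24 ± 0.32, and neither passed the test. In arthritic mice the direction was the opposite, at -0.50 ± 0.22, with an unadjusted p of 0.0384 and an adjusted p of 0.9998.

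Mmp8 itself differed by -5.54 ± 1.03 in arthritic mice (adjusted p = 0.377) and by -4.01 ± 1.03 in control mice (adjusted p = 0.9998). Of the 5 Mmp8-/- arrays without Mmp8 signal, 3 read below 4.93, the lowest mean tested, which is a cutoff by rank and not a measured background. The difference in control mice includes the array labelled Mmp8-/- control replicate 2, which read 10.65. Without the array labelled Mmp8-/- control replicate 2 the differences were -5.54 ± 0.27 and -5.91 ± 0.30 with adjusted p of 1.6e-07 and 3.1e-07, and both were called. Mmp20 in control mice differed by -0.56 ± 0.19 without overlap (unadjusted p = 0.0119), and by -0.23 ± 0.31 once all 3 arrays were left out. Mmp13 differed by -0.10 ± 0.20 in arthritic and by -0.24 ± 0.20 in control mice, and Mmp10 by 0.31 ± 0.22 in arthritic and by 0.19 ± 0.22 in control mice. Mmp7 differed by 0.15 ± 0.18 in arthritic and by -0.05 ± 0.18 in control mice, and Mmp27 by 0.16 ± 0.23 in arthritic and by 0.49 ± 0.23 in control mice. None of these had an unadjusted p below 0.05.

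**Figure D4:**
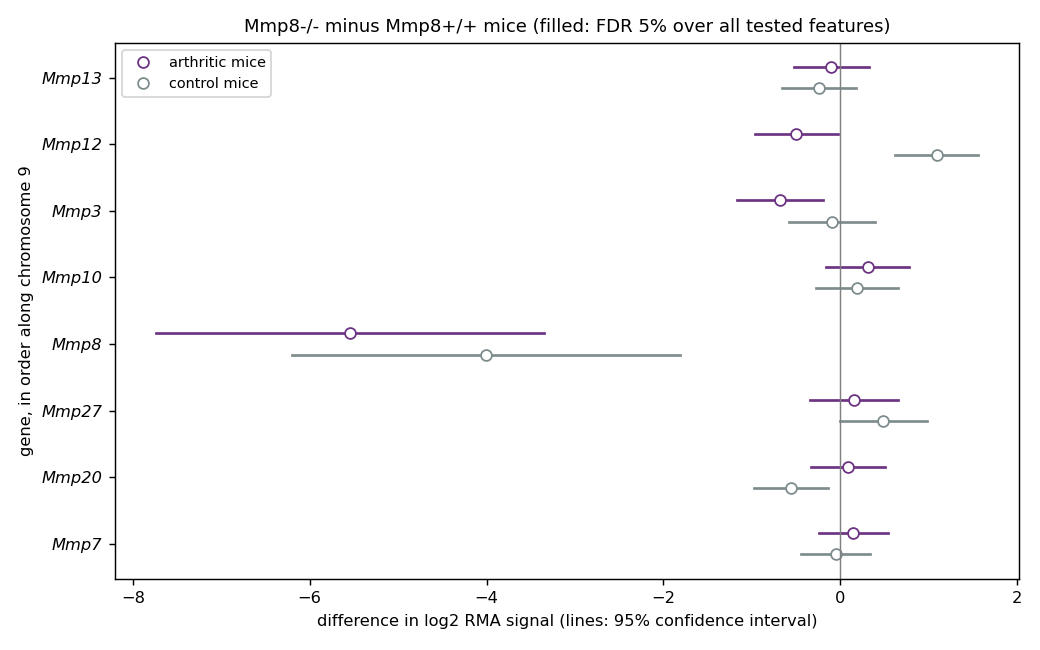
Difference in log2 RMA signal between Mmp8-/- and Mmp8+/+ mice (horizontal axis) for the 8 genes in chromosome order (vertical axis), in arthritic mice (purple) and control mice (grey). Points are limma estimates and lines 95% confidence intervals, and no point is filled because no gene had an adjusted p below 0.05. The intervals of Mmp3 in arthritic mice, Mmp12 and Mmp8 in both, and Mmp20 in control mice exclude 0.

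Genes that act on the cluster proteases were then examined as lists. Of all tested rows, 21.5% were called in Mmp8-/- mice and 18.8% in Mmp8+/+ mice. Of 7 inhibitors and clearance genes, 1 rose and 4 fell in each genotype, with medians of -1.15 in Mmp8-/- mice and -0.84 in Mmp8+/+ mice. Timp1, the inducible inhibitor of most metalloproteinases, rose by 3.37 ± 0.18 in Mmp8-/- mice and by 3.29 ± 0.18 in Mmp8+/+ mice. Timp4 fell by 2.85 ± 0.32 in Mmp8-/- mice and fell by 2.63 ± 0.32 in Mmp8+/+ mice. Timp3, the inhibitor held in the matrix, fell by 1.58 ± 0.25 in Mmp8-/- mice and fell by 1.24 ± 0.25 in Mmp8+/+ mice. A2m, a broad plasma protease inhibitor, fell by 2.09 ± 0.55 in Mmp8-/- mice and fell by 2.26 ± 0.55 in Mmp8+/+ mice. A2m read 10.74 and 10.81 on the Mmp8-/- and Mmp8+/+ control arrays with Xist signal, against 8.29 to 8.76 on the other 4 control arrays and 7.02 to 7.39 on the arthritic arrays. Without both arrays with Xist signal it fell by 1.35 ± 0.20 in Mmp8-/- mice and fell by 1.56 ± 0.20 in Mmp8+/+ mice, and both passed the test (adjusted p = 0.00095 and 0.00027). The call was lost in Mmp8-/- mice without control replicate 1 (-1.35, adjusted p = 0.0792) or arthritic replicate 1 (-2.05, adjusted p = 0.0559), and in Mmp8+/+ mice without control replicate 1 (-1.56, adjusted p = 0.0509). Without all 3 arrays that stood apart, 1 inhibitor rose and 2 fell in Mmp8-/- mice and 1 rose and 3 fell in Mmp8+/+ mice, and without Mmp8+/+ control replicate 1 alone 1 rose and 2 fell in Mmp8+/+ mice.

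Of 9 pro-enzyme activators tested, 1 rose in Mmp8-/- mice, and 4 rose and 1 fell in Mmp8+/+ mice (medians 0.17 and 0.50). Plau, the urokinase that generates plasmin, rose in both, by 1.27 ± 0.15 in Mmp8-/- mice and by 1.04 ± 0.15 in Mmp8+/+ mice. Of 10 inducing cytokines and receptors tested, 6 rose in Mmp8-/- mice and 4 in Mmp8+/+ mice, and none fell (medians 0.68 and 0.54). Il6 rose by 3.43 ± 0.35 in Mmp8-/- mice and by 2.92 ± 0.35 in Mmp8+/+ mice, and Il1b by 2.33 ± 0.18 and by 1.89 ± 0.18. Tnfsf11, the osteoclast factor RANKL, rose by 1.35 ± 0.23 in Mmp8-/- mice and by 1.10 ± 0.23 in Mmp8+/+ mice, and Osm, which encodes oncostatin M, by 1.22 ± 0.22 and by 0.88 ± 0.22.

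Of 13 transcription factors tested, 6 rose and 1 fell in Mmp8-/- mice, and 7 rose and 1 fell in Mmp8+/+ mice (medians 0.38 and 0.58). The AP-1 subunit genes Fos and Junb rose by 1.24 ± 0.23 and 1.07 ± 0.24 in Mmp8-/- mice and by 0.92 ± 0.23 and 0.91 ± 0.24 in Mmp8+/+ mice. Cebpb, a C/EBP factor, rose by 1.16 ± 0.20 in Mmp8-/- mice and by 0.84 ± 0.20 in Mmp8+/+ mice, and the Ets-family gene Etv4 by 0.95 ± 0.30 and by 1.15 ± 0.30. Of 11 matrix substrates tested, 2 rose and 1 fell in Mmp8-/- mice and 4 rose in Mmp8+/+ mice (medians -0.05 and 0.17). Eln, the gene of elastin, rose by 0.80 ± 0.17 in Mmp8-/- mice and by 1.32 ± 0.17 in Mmp8+/+ mice, and Acan, the gene of the cartilage proteoglycan aggrecan, by 0.58 ± 0.19 and by 0.71 ± 0.19. The calls of Timp1, Timp4, Plau, Il6 and Il1b held under all 23 alternatives in both genotypes, whereas those of the other named genes were lost under at least 1 of them in at least 1 genotype, most often that of Acan in Mmp8-/- mice, under 15, where leaving out any 1 array of the Mmp8-/- mice gave rises of 0.54 to 0.61, none of which passed, as did leaving out any 1 arthritic Mmp8+/+ array, with rises of 0.58. In Mmp8+/+ mice, Acan was not called without control replicate 3 (0.46, adjusted p = 0.0563) or arthritic replicates 2 or 3 (0.68 and 0.69).

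The call of Etv4 was lost under 9 alternatives in Mmp8-/- mice and under 5 in Mmp8+/+ mice. Its rise in Mmp8-/- mice was 0.68 without control replicate 1 (adjusted p = 0.173), 0.60 without arthritic replicate 1 (adjusted p = 0.171) and 0.91 without arthritic replicate 2 (adjusted p = 0.0763). In Mmp8+/+ mice, leaving out arthritic replicate 1 ended the calls of Etv4 (1.11, adjusted p = 0.0571), Fos (0.65, adjusted p = 0.0647), Junb (0.84, adjusted p = 0.0704) and Osm (0.60, adjusted p = 0.0687). Leaving out control replicate 1 ended those of Etv4 (1.06), Junb (0.80) and Osm (0.84), and leaving out control replicate 2 those of Etv4 (1.12) and Junb (0.83).

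The number of transcription factors called in Mmp8+/+ mice, 8 with all arrays, was 5 without control replicate 1, 4 without control replicate 2, 3 without arthritic replicate 1, 5 without both arrays with Xist signal and 4 without all 3 arrays that stood apart. In Mmp8-/- mice it was 4 without control replicate 1 or both arrays with Xist signal and 1 without all 3, against 7 with all arrays. Without all 3, 2 cytokine and receptor genes were called in Mmp8-/- mice and 3 in Mmp8+/+ mice, and 0 matrix substrates in Mmp8-/- mice and 4 in Mmp8+/+ mice. In Mmp8-/- mice 1 matrix substrate was called without any 1 control array, without arthritic replicates 1 or 3, or without arthritic Mmp8+/+ replicate 2.

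**Figure D5:**
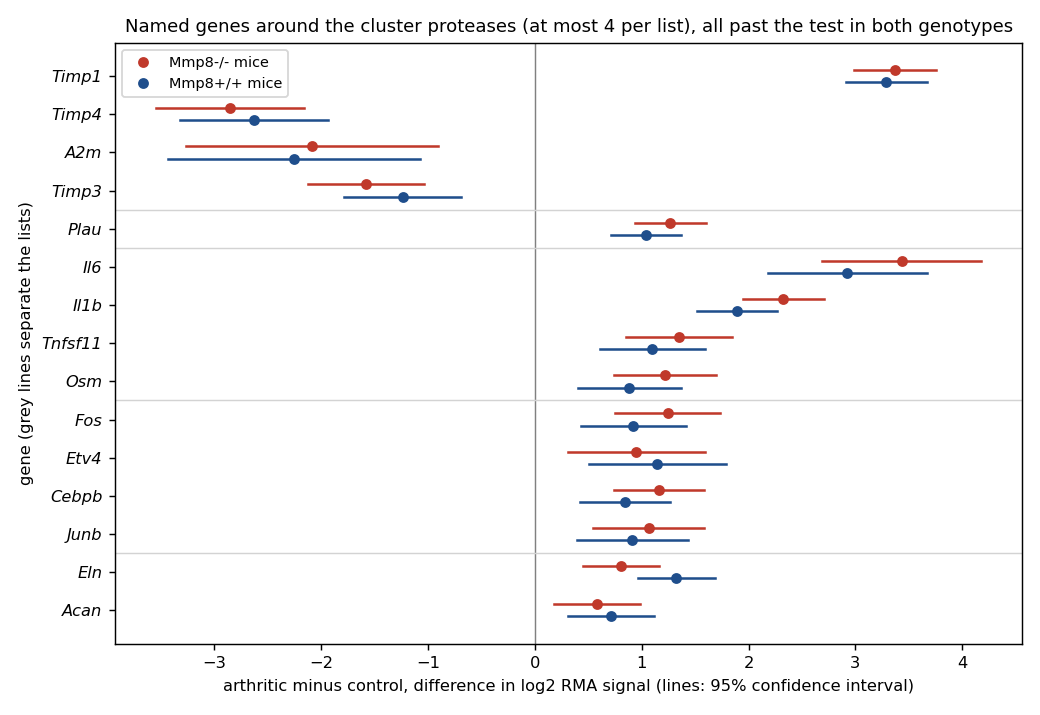
Difference in log2 RMA signal between arthritic and control mice (horizontal axis) for 15 named genes of the inhibitor, activator, cytokine, transcription factor and matrix lists (vertical axis), in Mmp8-/- mice (red) and Mmp8+/+ mice (blue). Points are limma estimates and lines 95% confidence intervals. Timp1 lies on the side of the cytokines, whereas Timp4, A2m and Timp3 lie below 0.

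Markers of the joint's other tissues were also counted, where 21.5% of all rows were called in Mmp8-/- mice and 18.8% in Mmp8+/+ mice. All 5 adipocyte markers fell in both genotypes, 4 of 5 osteoblast and osteocyte markers fell in both, and 3 of 6 skeletal muscle markers fell in Mmp8-/- mice and 6 of 6 in Mmp8+/+ mice. Of 7 synovial fibroblast markers, a cell type that secretes Mmp3, 2 rose and 2 fell in Mmp8-/- mice and 2 rose in Mmp8+/+ mice, with list means of 10.32 to 10.60 in arthritic Mmp8-/- mice, 10.27 to 10.34 in Mmp8-/- control mice, 10.46 to 10.59 in arthritic Mmp8+/+ mice and 10.04 to 10.25 in Mmp8+/+ control mice. Of 8 chondrocyte markers, 3 rose and 1 fell in Mmp8-/- mice and 1 rose and 1 fell in Mmp8+/+ mice. Of 6 osteoclast markers 1 rose in each genotype, and of 5 keratinocyte markers 1 fell in Mmp8-/- mice. With all arrays, the osteoclast and keratinocyte shares were not above those of all rows. In Mmp8-/- mice, 4 osteoclast markers rose with each array's mean subtracted and 3 with quantile normalization. Averaged over genotypes, 4 osteoclast markers were higher, where 19.8% of all rows were higher. Without control replicate 3, 4 keratinocyte markers fell in Mmp8-/- mice. The muscle count in Mmp8+/+ mice was 1 without both arrays with Xist signal and without all 3 arrays that stood apart, 1 without control replicate 1, arthritic replicate 1 or arthritic replicate 2, and 2 without control replicate 3. In Mmp8-/- mice it was 0 without all 3 arrays and 1 to 5 with each array left out. Without all 3 arrays, 0 chondrocyte, 1 synovial fibroblast and 2 osteoblast and osteocyte markers were called in Mmp8-/- mice, against 2, 2 and 3 in Mmp8+/+ mice, and the count of adipocyte markers stayed at 5 in both. With each array left out, the chondrocyte count was 1 to 4 and the synovial fibroblast count 1 to 4 in Mmp8-/- mice. The part of these cell types in the values of Mmp3, Mmp13 and Mmp12 was not tested.

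The genes whose pattern over the 12 arrays was most like that of a cluster gene were found by the mean absolute difference between log2 signals centred on each gene's own mean. For Mmp3, which deviated from its mean by 2.53 on average, these were Saa3, an acute-phase serum amyloid gene (0.309), Cxcl5, a neutrophil-attracting chemokine gene (0.492), and Bdkrb1, a bradykinin receptor gene (0.695). For Mmp12, which deviated by 0.480, they were 2410002F23Rik (0.193), Cpz (0.224) and Lrrc28 (0.243). For Mmp13, which deviated by 0.389, they were B3galnt1 (0.113), Nudcd1 (0.122) and Fam98a (0.124). For Mmp20, which deviated by 0.313, they were Gm5244 (0.122), 4932435O22Rik (0.139) and Cela1 (0.140). For Mmp8 over the 6 Mmp8+/+ arrays, where it deviated by 0.309, they were Tmem120b (0.0750), Igkv4-55 (0.0859) and Arrb1 (0.0909). The measure also counts the size of changes, so it cannot show whether genes with larger changes, such as neutrophil markers, followed Mmp8.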

How the data were processed

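Ankle joint RNA of 12 mice, 3 in each of 4 groups, was measured on Mouse Gene 1.0 ST arrays. The authors background corrected, quantile normalized and summarized the scanner data by RMA and deposited log2 values of 28853 rows; the raw scans were not used here. Groups came from the sample labels; replicate numbers follow deposition order and only name arrays. Rows were named from the platform annotation, and gene symbols updated through RefSeq identifiers. The rows with 1 symbol and the highest mean signal were tested, as many as the study kept, down to a mean of 4.93. Differences between groups came from limma 3.58.1 (R 4.3.3), fitted over 12 arrays with a mean for each group, 8 residual degrees of freedom and no covariate; p-values are two-sided and adjusted by Benjamini-Hochberg over all tested rows. Errors of differences are standard errors. The number of arrays limits the precision. Of each list, at most 4 genes called in both genotypes were named, those with the largest averaged difference, and Mmp1a and Mmp1b in any case; 3 most similar genes were named for Mmp8 and each cluster gene called. Members and lists were chosen with earlier results of these data known. Klkb1, Il1r1, Runx2, Nfkb1, Spp1, Bglap and Flg, also on the lists, had no row with 1 symbol and were not analysed here. The procedure was tested on simulated data. Alternatives changed the arrays fitted, the filter, the rows, the variance model and the scaling, and left out arrays.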

Additional observations from a re-analysis of the deposited data

How the results depend on the processing

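The rises of Mmp3, the fall of Mmp12 in Mmp8-/- mice and the averaged calls of Mmp3, Mmp12 and Mmp13 passed the test under every alternative run. The number of cluster genes called with arthritis in Mmp8-/- mice was 2 without all 3 arrays that stood apart and 4 in the reported analysis, 3 without control replicate 1 or the pair of arrays with Xist signal, and 3 to 4 with each array left out. In Mmp8+/+ mice it was 1, not 2, by ordinary regression, without both arrays with Xist signal and without all 3, and 1 to 2 with each array left out. Averaged over genotypes it was 3, not 5, under the same 3 settings and under quantile normalization, and 3 to 6 with each array left out. Between genotypes in arthritic mice it was 1, namely Mmp8, in the compared groups alone, without the array with Mmp8 signal and without all 3, and 0 to 1 with each array left out; in control mice it was 1 under the last 2 of these settings and 0 to 1 with each array left out. The cause of the other changes was not tested.

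These differences changed sign, that of Mmp8 in Mmp8-/- mice against -1.89 and its interaction against -1.54 with all arrays. With array weights, the difference of Mmp27 in Mmp8+/+ mice was 0.12 and that of Mmp13 between arthritic genotypes 0.0035. With each array's mean subtracted, Mmp27 was 0.022 and Mmp12 0.0079 in Mmp8+/+ mice, and with quantile normalization Mmp20 was -0.023 there. Without the array with Mmp8 signal, Mmp8 was 0.011 in Mmp8-/- mice with an interaction of 0.37, and Mmp10 was -0.017 between control genotypes. Without both arrays with Xist signal, Mmp3 was 0.051 and Mmp7 0.018 between control genotypes, and the interaction of Mmp10 was -0.19. Without all 3, the interactions were 0.53 for Mmp8 and -0.046 for Mmp10. With each array left out, the arthritis difference of Mmp8 in Mmp8-/- mice ranged from -2.90 to 0.011, and in Mmp8+/+ mice that of Mmp12 from -0.082 to 0.047, Mmp20 from -0.070 to 0.26 and Mmp27 from -0.24 to 0.16. Between arthritic genotypes Mmp13 ranged from -0.22 to 0.066 and Mmp20 from -0.082 to 0.25, and between control genotypes Mmp3 from -0.25 to 0.15, Mmp7 from -0.23 to 0.078 and Mmp10 from -0.017 to 0.46. The interaction ranged from -2.55 to 0.37 for Mmp8 and from -0.15 to 0.33 for Mmp10.

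Over all rows, 471 to 4226 were called in Mmp8-/- mice, 1707 to 4847 in Mmp8+/+ mice and 2678 to 9750 averaged over genotypes, with the lowest counts without all 3 arrays. Each gene had 1 row, so no other row could be tried. Each array was a different mouse and the labels give no pairs of mice, so no paired analysis was run.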
